A study of Cenchrus purpureus with 8 samples.

Results

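A set of 300 assembled loci of napiergrass (Cenchrus purpureus) was described that were clean on-or-off loci across 8 young stem transcriptomes: each had reads in 3, 4 or 5 of the libraries and none in the rest. The series asks which genes of this forage crop go with lignin, the wall polymer that makes stems harder to digest. The high lignin entries were BAGCE_5, BAGCE_10, BAGCE_82 and BAGCE_Pioneiro, and the low lignin entries were BAGCE_7, BAGCE_32, BAGCE_96 and BAGCE_98, with 1 library each. All came from 1 germplasm bank, were grouped on the laboratory's earlier lignin results, and gave RNA from the top nodes of the stem. The labels give no genotype beyond the entry name and no plant age, and an entry and its single library cannot be told apart.

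Loci were selected on the reads themselves. The estimated reads of all transcripts of a locus were summed and rounded. A locus qualified when 3, 4 or 5 libraries reached 10 reads, which is called on here, and all remaining libraries had 0 reads, called off. Of 66981 loci, 542 qualified, and the 300 with the highest mean reads over their on libraries were kept. At that limit, MSTRG.13729 and MSTRG.47169, both at a mean of 38.5 reads, were kept, and MSTRG.36315 and MSTRG.9221, at 38.2 and 37.6 reads, were not. The same rule held for 242 loci on in 2 libraries and for 420 on in 6. A further 1010 loci had 3 to 5 libraries at 10 reads or more and missed the rule because a single library held 1 to 9 reads. Since the on and off states chose the loci, the states and levels below are descriptions and carry no test.

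Accessions of a grass species commonly differ in which genes their genomes carry, in which alleles they carry and in which genes a tissue transcribes. Napiergrass is a polyploid that outcrosses and is propagated by stem cuttings, so that entries of a germplasm bank can be highly heterozygous and unlike each other. RNA reads counted on 1 shared assembly do not distinguish a gene that an entry lacks from one that it carries but does not transcribe, or from an allele too different in sequence to be counted. In a bulk stem sample, fewer cells of a type and less RNA per cell cannot be told apart either. The files give each locus a number and no gene name, so no function, no marker of stem tissue and no lignin gene could be assigned to any locus.

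The libraries held 15405987 to 17997520 assigned reads in high lignin and 14925391 to 16970262 in low lignin. A count of 0 reads allows up to 3 reads, or 0.167 to 0.201 CPM (reads scaled to library size, here the plain total) over the 8 libraries, for counting error only, so an off state means below that level. BAGCE_5, the deepest library, had 42067 loci with at least 10 reads, the fewest of all, against 45128 to 48204 in the other 7. Together the 300 loci took 0.0713% to 0.169% of a library's reads.

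The on states fell unevenly on the entries. In high lignin, BAGCE_5 was on at 88 of the 300 loci, BAGCE_10 at 102, BAGCE_82 at 193 and BAGCE_Pioneiro at 209. In low lignin, BAGCE_7 was on at 178, BAGCE_32 at 198, BAGCE_96 at 146 and BAGCE_98 at 181. The high lignin entries thus spanned the whole range, with 148 ± 61.8 loci, and the low lignin entries lay within it, with 176 ± 21.7 (SD, n = 4 each). BAGCE_5 and BAGCE_10 were both off at 144 loci (48%), and BAGCE_5, BAGCE_10 and BAGCE_96 were all off at 86 (28.7%). Over all qualifying loci BAGCE_5 was on at 31% and BAGCE_Pioneiro at 65.5%, the same lowest and highest entries as among the 300.

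**Figure D1:**
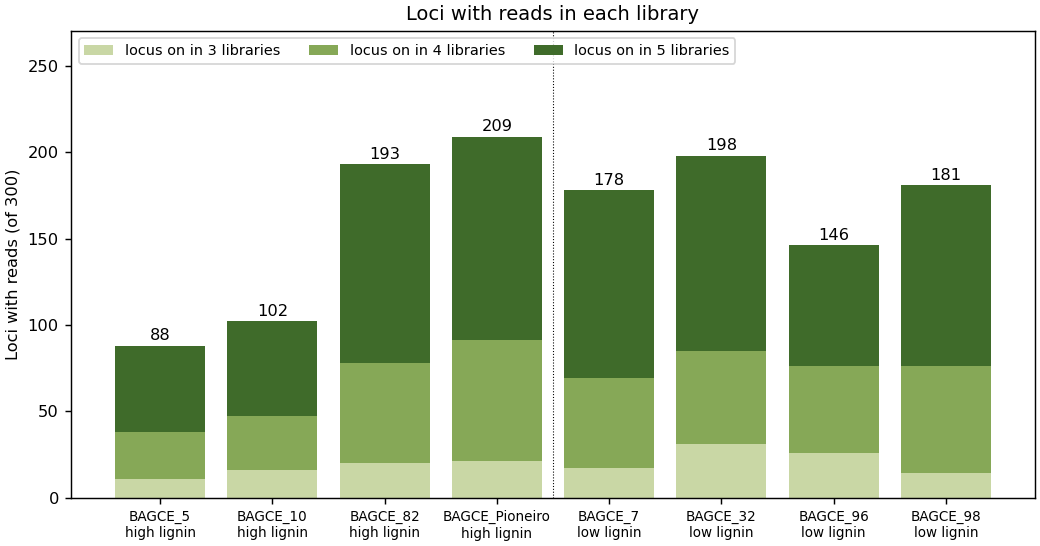
Number of the 300 loci with reads in each library, stacked by whether the locus was on in 3, 4 or 5 libraries, with the high lignin entries left of the dotted line and the low lignin entries right of it. BAGCE_5 and BAGCE_10 have the lowest totals, 88 and 102, and BAGCE_Pioneiro the highest, 209.

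Of the 182 sets of entries that 3, 4 or 5 libraries can form, 101 occurred. By size, 52 loci were on in 3 libraries, in 24 different sets. Another 101 loci were on in 4 libraries, in 37 sets, and 147 were on in 5, in 40 sets. A set of 5 entries, BAGCE_82, BAGCE_Pioneiro, BAGCE_7, BAGCE_32 and BAGCE_98, held 44 loci (14.7%), and 71 (13.1%) of all that qualified. Its mirror image, on in BAGCE_5, BAGCE_10 and BAGCE_96 and off in the others, held 0 of all that qualified. The next set, BAGCE_82, BAGCE_Pioneiro, BAGCE_32 and BAGCE_96, held 12 loci, and the set after that, BAGCE_82, BAGCE_Pioneiro, BAGCE_7 and BAGCE_98, held 8. At the other end, 42 sets held 1 locus each and 22 held 2 each.

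**Figure D2:**
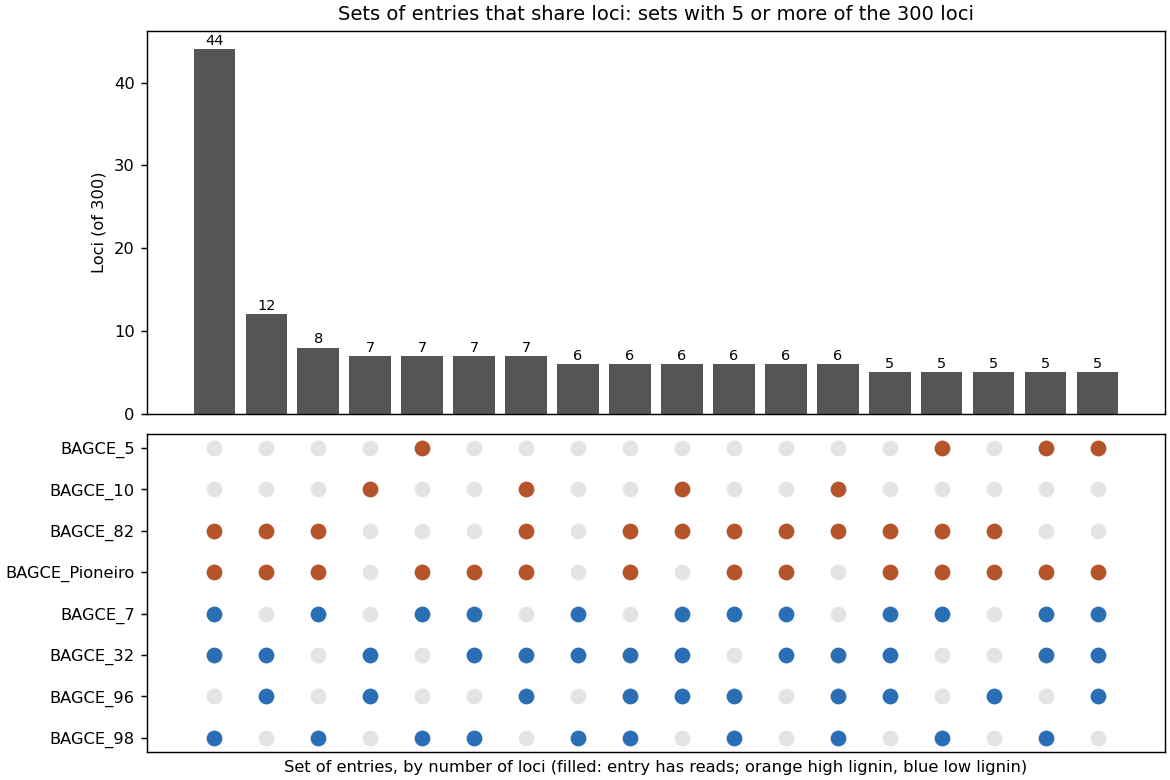
Sets of entries with 5 or more of the 300 loci: bars give the number of loci, and filled dots below mark the entries with reads (orange high lignin, blue low lignin). A single set, off in BAGCE_5, BAGCE_10 and BAGCE_96, stands at 44 loci, against 12 for the next.

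Some smaller sets were part of that commonest one. Of the 101 loci on in 4 libraries, 27 (26.7%) were on only in entries of the commonest set, which 5 of the 70 possible sets of 4 (7.14%) allow. Of the 52 loci on in 3 libraries the same held for 15 (28.8%), where 10 of 56 sets (17.9%) allow it. Both shares of possible sets count each set alike, but the entries were not on equally often. Of the loci on in 4 libraries, BAGCE_5, BAGCE_10 and BAGCE_96 were on at 27, 31 and 50, against 52 to 70 for the others. Of those on in 3 libraries, they were on at 11, 16 and 26, against 14 to 31 for the others. The part of these unequal counts was not tested, so nothing is read from the difference. Loci that the rule left out did not all follow one pattern. Of the 420 loci on in 6 libraries, 132 (31.4%) were off in BAGCE_5 and BAGCE_10, 47 in BAGCE_10 and BAGCE_96, and 37 in BAGCE_5 and BAGCE_96. Of the 242 loci on in 2 libraries, 60 (24.8%) were on in BAGCE_10 and BAGCE_96, and 29 (12%) in BAGCE_7 and BAGCE_98. Of the 611 loci on in 1 library, 286 (46.8%) were on in BAGCE_10, which was thus the entry most often on there.

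Pairs of entries were compared by the share of the 300 loci at which both were on or both off. BAGCE_7 and BAGCE_98 were most alike, with 132 loci on in both, 73 off in both and 68.3% in the same state. BAGCE_10 and BAGCE_96 followed at 62.7%, through 120 shared off and 68 shared on loci, and BAGCE_82 and BAGCE_Pioneiro came next at 61.3%. The least alike were BAGCE_10 and BAGCE_Pioneiro, at 25.7%, and BAGCE_7 and BAGCE_96, at 26%. The mean was 44.3% over the 12 pairs within a lignin group and 45.9% over the 16 pairs between groups. Without the 44 loci of the commonest set, BAGCE_7 and BAGCE_98 stayed at the top with 62.9%, BAGCE_10 and BAGCE_96 followed with 56.2%, and BAGCE_10 and BAGCE_Pioneiro stayed at the bottom with 30.1%.

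Expression levels ranked the pairs of entries differently. Over 46649 other loci, Spearman's rho of log2 CPM was highest between BAGCE_82 and BAGCE_96, at 0.873, and these shared a state at only 45.7% of the 300 loci. BAGCE_10 and BAGCE_96 had the second highest rho, 0.858. BAGCE_7 and BAGCE_98, first by shared states, had a rho of 0.733. These coefficients are across loci within the same libraries and are given as descriptions.

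**Figure D3:**
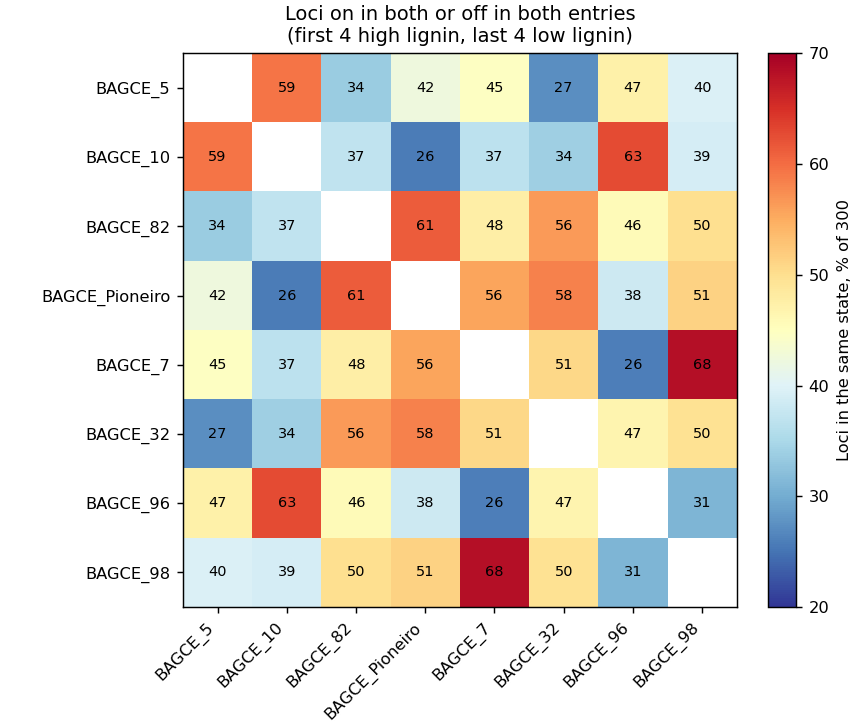
Percentage of the 300 loci at which each pair of entries was in the same state, on in both or off in both, with high lignin entries first on both axes. BAGCE_7 with BAGCE_98 is highest at 68.3%, and BAGCE_10 with BAGCE_Pioneiro lowest at 25.7%.

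Levels in the on libraries were moderate. Mean reads over the on libraries ran from 38.5 to 1334, with a median of 71.1. The lowest on library held 10 to 424 reads, with a median of 25.5, and 195 loci had at least 20 reads in every on library, 66 at least 50 and 28 at least 100. Per length, the authors' TPM (transcript abundance scaled for length and depth) summed per locus and averaged over the on libraries had a median of 6.55. That is lower than the median of 9.04 TPM of the 30703 loci with at least 10 reads in every library, 39.4% of which lay below the median of the on-or-off loci. The on libraries differed among themselves: the ratio of highest to lowest CPM had a median of 4.79 and was under 2 at 44 loci and under 10 at 220.

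The loci with the highest TPM came from 5 different sets. MSTRG.13935 was listed at 190 TPM in BAGCE_5, 35.7 in BAGCE_82, 85.1 in BAGCE_7 and 36.6 in BAGCE_98, and at 0 in the other 4 entries. For MSTRG.33710 the values were 45, 95.4, 52.5 and 142 TPM in BAGCE_82, BAGCE_Pioneiro, BAGCE_7 and BAGCE_98. MSTRG.11276 stood at 192 TPM in BAGCE_10, 1.06 in BAGCE_82 and 11.8 in BAGCE_96. Next to these, MSTRG.22452 averaged 62.4 TPM and MSTRG.949 averaged 58.6 TPM over their on libraries. No 2 of these 5 loci had reads in the same set of entries.

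MSTRG.11276 also had the most reads and the widest range. It had 3756 reads in BAGCE_10 and 18 in BAGCE_82, both high lignin, and 228 in BAGCE_96, a low lignin entry, a 222-fold span in CPM. The only other locus of that set, MSTRG.12416, had 242 reads in BAGCE_10, 32 in BAGCE_82 and 120 in BAGCE_96, so the order of the entries was the same and the span was 8.05-fold, and the summed absolute difference in log2 CPM between the 2 loci was 5.63 over the 3 entries. At the other extreme MSTRG.44196, with 45 reads in BAGCE_5, 56 in BAGCE_Pioneiro and 37 in BAGCE_32, spanned 1.07-fold in CPM.

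Within the commonest set, MSTRG.22452 averaged 62.4 TPM over its on libraries, above the 25.5 TPM of MSTRG.43855. By mean reads MSTRG.43855 came first, with a longest transcript of 2458 bases. It had 10 transcripts, the highest number among the 300, as did MSTRG.10654, which had 606, 636, 65 and 803 reads in the high lignin entries BAGCE_5, BAGCE_10, BAGCE_82 and BAGCE_Pioneiro and 163 in the low lignin entry BAGCE_32. MSTRG.43855 had 410 reads in BAGCE_82, 640 in BAGCE_Pioneiro, 520 in BAGCE_7, 1041 in BAGCE_32 and 664 in BAGCE_98, and 0 in BAGCE_5, BAGCE_10 and BAGCE_96. The second, MSTRG.21460, had 622, 664, 220, 55 and 355 reads in the same 5 entries. BAGCE_32 was thus the highest entry at the first locus and the lowest at the second. Over the 44 loci, mean reads ran from 39 to 655 with a median of 74.5, and 37 loci had at least 20 reads in all 5 entries. BAGCE_32 had the highest CPM of the 5 entries at 25 of the 44 loci, BAGCE_7 at 7, BAGCE_82 at 5, BAGCE_Pioneiro at 4 and BAGCE_98 at 3. The median was 6.26 CPM in BAGCE_32 and 3.48 to 3.8 CPM in the other 4.

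The entry with the highest level changed with the set. In the set of 12 loci, BAGCE_32 was highest at 9: MSTRG.64595 had 46, 42, 194 and 164 reads in BAGCE_82, BAGCE_Pioneiro, BAGCE_32 and BAGCE_96. MSTRG.38152, of the same set, had 69, 68, 148 and 34. In the 7 loci on in BAGCE_Pioneiro, BAGCE_7, BAGCE_32 and BAGCE_98, BAGCE_32 was highest at all 7 by CPM, among them MSTRG.14700 with 191, 98, 175 and 110 reads. In the 8 loci on in BAGCE_82, BAGCE_Pioneiro, BAGCE_7 and BAGCE_98, BAGCE_98 was highest at 7. Over all 300, BAGCE_32 was highest at 83 of the 198 loci where it was on (41.9%). For BAGCE_10 it was 39 of 102 (38.2%), and for BAGCE_82 18 of 193 (9.33%). Among loci with at least 10 reads in every library, where 8 entries can be highest and not 3 to 5, the shares cannot be set beside these. There BAGCE_5 was highest most often, at 21.5% of the loci, with BAGCE_32 next at 16%.

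Less frequent sets mixed steady and uneven loci. In the set on in BAGCE_10, BAGCE_32 and BAGCE_96, 7 loci, MSTRG.1213 had 12, 189 and 458 reads, and MSTRG.30363 had 20, 78 and 274, with BAGCE_96 highest at both. In the set on in BAGCE_5, BAGCE_Pioneiro, BAGCE_7 and BAGCE_98, also 7 loci, MSTRG.35612 had 606 reads in BAGCE_5 and 16, 40 and 16 in the others. MSTRG.59209, of that same set, was far more even, with 158, 230, 75 and 151 reads.

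Some loci of 1 set kept nearly the same ratio in every on library. The comparison was made after the values were seen, over the 1290 pairs of loci that shared a set of 4 or 5 entries, by the SD of the log2 ratio of their CPM over those entries. The median SD was 1.17, and 13 pairs (1.01%), from 19 loci, were under 0.2. The set of BAGCE_82, BAGCE_Pioneiro, BAGCE_7 and BAGCE_98 gave 5 of these from its 28 pairs, and all 5 were among 4 loci. In those entries MSTRG.33710 had 424, 958, 532 and 1261 reads and MSTRG.33754 had 247, 570, 347 and 767, a ratio of 0.583 to 0.652, second over first. MSTRG.11300 had 176, 322, 187 and 568 reads and MSTRG.3260 had 157, 321, 190 and 525. All 4 loci rank the entries alike, with BAGCE_98 first and BAGCE_Pioneiro second by reads. Their longest transcripts measured 884, 856, 859 and 1120 bases, each from a single assembled transcript. Their locus numbers lie far apart except for the first pair, 44 numbers from each other. Whether they are near-identical copies between which reads could be divided was not tested, since no sequence was used here.

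MSTRG.46901 and MSTRG.46926, 25 numbers apart, ran together over a much wider range of levels. MSTRG.46901 had 84, 13, 437, 91 and 44 reads in BAGCE_82, BAGCE_Pioneiro, BAGCE_7, BAGCE_32 and BAGCE_96, and MSTRG.46926 had 99, 12, 488, 119 and 55. The second stood at 0.923 to 1.31 times the first in all 5 entries, while each spanned over 40-fold in CPM, 44.8-fold and 54.2-fold. Another group, on in BAGCE_Pioneiro and all 4 low lignin entries, was MSTRG.13654, MSTRG.65629 and MSTRG.66765. In BAGCE_Pioneiro, BAGCE_7, BAGCE_32, BAGCE_96 and BAGCE_98, MSTRG.13654 had 45, 36, 30, 62 and 81 reads, MSTRG.65629 had 66, 74, 49, 117 and 160, and MSTRG.66765 had 35, 34, 24, 52 and 74. All 3 were highest in BAGCE_98 and lowest in BAGCE_32 by reads. By CPM MSTRG.65629 was lowest in BAGCE_Pioneiro, at 3.12 against 3.26 in BAGCE_32. The SD of the log2 ratio was 0.1 for MSTRG.65629 with MSTRG.66765 and 0.121 for MSTRG.13654 with MSTRG.66765.

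Loci with consecutive numbers often shared their set. Of the 8 pairs of the 300 loci with consecutive numbers, 5 had exactly the same set (62.5%), and 7 of 8 differed in at most 1 library. From 2 to 5 numbers apart 1 of 8 shared it, from 6 to 10 apart 0 of 7, from 11 to 50 apart 8 of 52 (15.4%), and from 51 to 200 apart 6 of 109 (5.5%). Over all 44850 pairs of the 300, whatever their distance, 3.02% shared their set. Among all 542 qualifying loci 11 of 22 consecutive pairs (50%) did. The number of libraries that differed averaged 1 between consecutive loci and 3.77 between successive loci over 200 numbers apart. Whether numbers near each other mean places near each other in the genome is not stated in the files.

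Runs, taken as successive loci of the same set at most 5 numbers apart, held 12 loci in 6 runs of 2. MSTRG.948 and MSTRG.949 were on in BAGCE_82, BAGCE_Pioneiro, BAGCE_7, BAGCE_96 and BAGCE_98. In these MSTRG.948 had 205, 48, 112, 12 and 354 reads and MSTRG.949 had 416, 406, 542, 18 and 1052. BAGCE_98 was highest and BAGCE_96 lowest at both. The loci just before them, singled out after their values were seen, had the same profile and missed the rule in BAGCE_96 alone. MSTRG.946 had 108, 32, 61, 8 and 197 reads and MSTRG.947 had 167, 150, 184, 7 and 452 in the same entries, and both had 0 in BAGCE_5, BAGCE_10 and BAGCE_32. In 4 consecutive loci the entries without a read were thus the same. The next locus, MSTRG.950, had reads in BAGCE_5 (12) and BAGCE_10 (25) and 0 in BAGCE_32 and BAGCE_98.

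MSTRG.41348 and MSTRG.41349 belonged to the commonest set and kept close to 1 ratio. MSTRG.41348 had 56, 101, 111, 95 and 98 reads in BAGCE_82, BAGCE_Pioneiro, BAGCE_7, BAGCE_32 and BAGCE_98, and MSTRG.41349 had 25, 53, 57, 41 and 52, which is 0.432 to 0.531 times as many. MSTRG.61518 had 56, 52, 62 and 46 reads in BAGCE_Pioneiro, BAGCE_7, BAGCE_32 and BAGCE_98, and MSTRG.61519 had 111, 114, 123 and 58. The ratio there was 1.26 in BAGCE_98 and 1.98 to 2.19 in the other 3. MSTRG.56203 had 88, 144 and 55 reads in BAGCE_82, BAGCE_Pioneiro and BAGCE_96, and MSTRG.56204 had 42, 107 and 30. Of the 9 loci within 5 numbers of this pair that had at least 10 reads in some library, 7 had reads in every entry where the pair had none.

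The SD of the log2 ratio was 1.36 for MSTRG.1492 with MSTRG.1495, the widest of the 6 runs. MSTRG.1492 had 77, 159 and 122 reads in BAGCE_82, BAGCE_Pioneiro and BAGCE_32, and MSTRG.1495 had 118, 67 and 30. Between them MSTRG.1494 had 145, 115 and 256 reads in these entries and 5 to 12 in the 5 others, and MSTRG.1493 had reads in all 8. MSTRG.11310 and MSTRG.11311 were on in the 4 low lignin entries only and are described with the lignin groups. Of the 3 consecutive pairs with unlike sets, MSTRG.48817 and MSTRG.48818 differed in BAGCE_10 alone, where they had 30 and 0 reads. MSTRG.59929 and MSTRG.59930 differed in BAGCE_98 alone, with 230 and 0 reads. MSTRG.13729 and MSTRG.13730 were close to opposites and shared reads only in BAGCE_98, with 48 and 36.

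**Figure D4:**
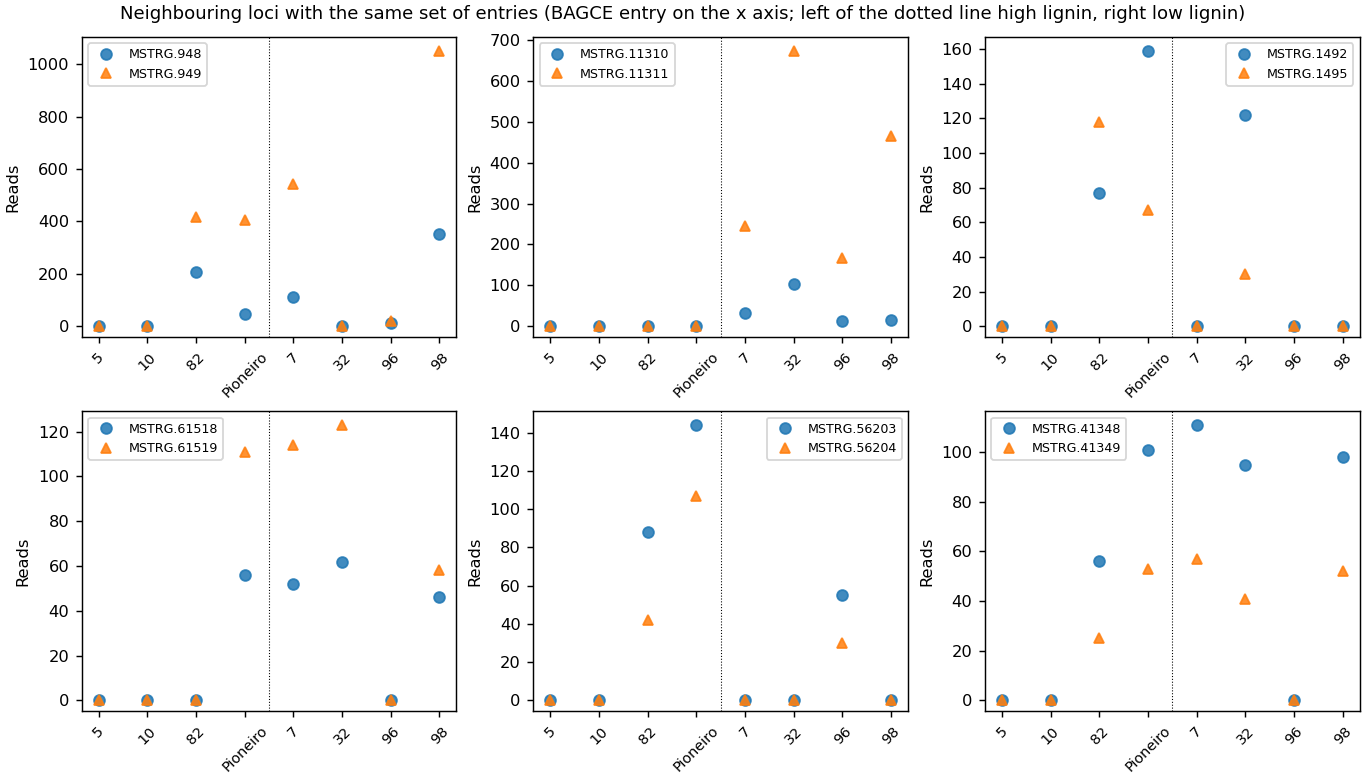
Reads of the 6 pairs of neighbouring loci with the same set of entries, 1 panel per pair and 1 point per library, with high lignin entries left of the dotted line and low lignin entries right of it. The zeros of both loci fall in the same libraries, which the definition of a run fixes. MSTRG.41349 keeps 0.432 to 0.531 times the reads of MSTRG.41348, the steadiest of the 6 pairs. Its SD of the log2 ratio is 0.14, against 1.36 for the widest pair, MSTRG.1492 with MSTRG.1495.

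Neighbouring loci outside the 300 were then examined. For each of the 300, neighbours with at least 10 reads in some library were asked whether they had no read in any library where the locus itself was off. That held for 41 of 523 neighbours 1 number away (7.84%), 23 of 530 at 2 numbers (4.34%) and 12 of 532 at 5 numbers (2.26%). At 10, 20, 50, 100 and 500 numbers it held for 1.29% to 2.39%. Conversely, 223 of the 523 nearest neighbours (42.6%) had at least 10 reads in every library where the locus was off, against 50% at 5 numbers and 57.8% at 500.

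**Figure D5:**
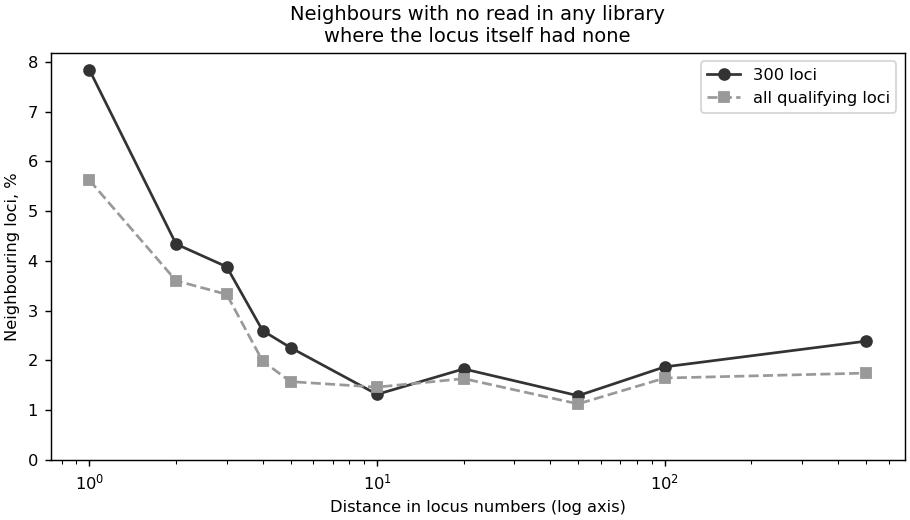
Percentage of neighbouring loci (with at least 10 reads in some library) that had no read in any library where the locus itself had none, by distance in locus numbers on a log axis, for the 300 loci and for all qualifying loci. The share falls from 7.84% at 1 number to 2.26% at 5 numbers for the 300 loci.

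The loci were shorter than those read in every library and more often had several transcripts. The 300 were ranked by reads summed over transcripts, which can favour loci with several, and the part of this ranking was not tested. The longest transcript had a median of 1126 bases (quartiles 831 and 1642), against 1636 (1145 and 2280) among the 30703 loci with at least 10 reads in every library and 1172 among the 66918 with any read. A single transcript was assembled at 143 of the 300 (47.7%), against 56.8% of the loci read in every library and 72.7% of those with any read. At the other 157 loci, 454 of 464 transcripts with reads (97.8%) had exactly the set of their locus. The reads of a locus are the sum of its transcripts, so the rule fixes their off states, and only their on states could differ. At 67 of the 157 loci 2 transcripts stayed within 20% of each other's reads in every library. Of 620 pairs of transcripts, 159 did so and 1 had equal reads in every library. Whether reads were counted for more than 1 transcript is not stated in the files and was not tested. If they were, summed reads would be too high there, and shared counting would also make the on states alike.

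The comparison of high with low lignin, the question of the series, found no locus past the threshold in edgeR. edgeR's quasi-likelihood test over 46894 loci called 0 at an adjusted p under 0.05 (0.0% of all loci), with 1157 at an unadjusted p under 0.05. limma-voom also called 0 and DESeq2 called 52. In edgeR the smallest adjusted p, 0.768, was that of MSTRG.59929, an on-or-off locus. Of the 300, 245 passed the filter on low counts, all 147 loci on in 5 libraries, 98 of 101 on in 4 and 0 of 52 on in 3. Those tested passed through the libraries where they were on. At an unadjusted p under 0.05 there were 8 of the 245 (3.27%), 1 higher and 7 lower in high lignin, where all loci tested gave 2.47%, 0.968% higher and 1.5% lower. Without a filter it was 21 of the 300 (7%), where all loci gave 3.21%. In limma-voom it was 14 of 245, where all loci gave 2.47%, and in DESeq2 20 of the 300, where all loci gave 4.71%. The selection used the reads behind these p-values, so nothing is read from the higher shares among the 300. By adjusted p DESeq2 called 10 of the 300, 1 higher and 9 lower, against 0.0872% of all loci with an adjusted p. All 10 were on in only 1 lignin group, a state that the selection used, so nothing is read from this count. DESeq2 gave no adjusted p for 25 of the 300.

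On states divided between the groups as follows. Of the 300 loci, 77 were on in more high than low lignin entries, 67 in as many and 156 in fewer. Loci on in both groups numbered 284, loci on only in high lignin entries 3 and loci on only in low lignin entries 13. Full separation, all 4 entries of a group and none of the other, held for 0 loci on in high lignin and for 4 on in low lignin (1.33%). Among all qualifying loci the set of the 4 low lignin entries held 6 (1.11%). These include the same 4 loci, so that share is no independent background. All counts of this division come from states that the rule used, and nothing is read from them about lignin. BAGCE_5 and BAGCE_10, both high lignin, were off at 212 and 198 of the 300, and their part in this division was not tested.

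The 4 loci without a read in any high lignin entry and on in all 4 low lignin entries were MSTRG.59929, MSTRG.11311, MSTRG.3612 and MSTRG.11310. MSTRG.59929 had 575, 278, 640 and 230 reads in BAGCE_7, BAGCE_32, BAGCE_96 and BAGCE_98, and MSTRG.11311 had 246, 674, 166 and 465. MSTRG.3612 had 79, 50, 47 and 18 reads and MSTRG.11310 had 33, 104, 12 and 16. The entry with the most reads was BAGCE_96 for the first, BAGCE_32 for the 2 neighbours MSTRG.11311 and MSTRG.11310, and BAGCE_7 for MSTRG.3612. By edgeR's quasi-likelihood test the adjusted p was 0.768 for MSTRG.59929 (1.64e-05 unadjusted) and 0.823 for MSTRG.11311. DESeq2 called all 4 loci. Its adjusted p was 2.74e-16 for MSTRG.59929, 7.22e-15 for MSTRG.11311, 4.58e-06 for MSTRG.3612 and 0.00064 for MSTRG.11310. The reads behind these p-values are those that the selection used, so they are no independent test of the 4 loci.

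On the other side, 3 loci were on only in high lignin entries, each in 3 of the 4. MSTRG.49181 had 2319 reads in BAGCE_5, 471 in BAGCE_10 and 164 in BAGCE_Pioneiro. MSTRG.292 had 167, 43 and 54 reads in BAGCE_5, BAGCE_10 and BAGCE_82, and MSTRG.58565 had 20, 66 and 47 in BAGCE_5, BAGCE_10 and BAGCE_Pioneiro. All 3 had reads in BAGCE_5 and BAGCE_10, the entries that were off most often overall. Among the loci tested by edgeR, MSTRG.44045 had the smallest p of those higher in high lignin, with 46, 130, 0 and 88 reads in BAGCE_5, BAGCE_10, BAGCE_82 and BAGCE_Pioneiro, and 10, 0, 0 and 0 in BAGCE_7, BAGCE_32, BAGCE_96 and BAGCE_98. It averaged 3.83 ± 3.61 CPM in high lignin and 0.157 ± 0.315 CPM in low lignin (SD, n = 4 each). Its log2 fold change was 4.55 (SE 1.77), with an edgeR adjusted p of 0.9997 (0.0305 unadjusted). Without BAGCE_7, the only low lignin entry with reads, the fitted value was 9.03 and depends on the prior count. MSTRG.29694 was next, with 30, 127, 38 and 38 reads in the high lignin entries and 21, 0, 0 and 0 in the low lignin entries, a log2 fold change of 3.41 (SE 1.51) and an edgeR adjusted p of 0.9997. Without BAGCE_7 its fitted value was 8.90, which depends on the prior count too, and in limma-voom it was 5.10. Its high lignin entries all lay above its low lignin entries, which held for 2 of the 245 loci tested (0.816%) and 0.544% of all loci. The opposite, every high lignin entry below every low lignin entry, held for 5 of the 245 (2.04%) and for 0.979% of all loci. Both shares rest on reads that the selection used, so nothing is read from them.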

How the data were processed

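Young stem libraries of 8 napiergrass entries were analysed, 4 high and 4 low lignin. Per the labels' protocols, TRIzol RNA went into Illumina TruSeq Stranded mRNA libraries. Per the submitters' processing notes, the tools were Salmon 0.7.2, StringTie 2.0.4, STAR 2.5.2b and FastQC 0.11.8. What each did, the genome build and how shared reads were treated are not stated there. The deposited files list, for 101169 transcripts, length, effective length, TPM and an estimated count of reads. TPM was normalized by the authors for length and depth, and was used here only to set levels between loci side by side. Estimated counts, 99.974% whole within 0.001 reads, were summed per locus and rounded.

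High and low lignin were compared with edgeR 4.0.16 (R 4.3.3): the quasi-likelihood F-test, two-sided, TMM, filterByExpr, robust dispersions, Benjamini-Hochberg adjustment over all loci and a threshold of 0.05. The same test was run after the main fit on counts simulated from that fit, and its outcome is not reported here. CPM used TMM-adjusted library sizes, and log2 CPM a prior count of 2. The SE of a log2 fold change was its absolute value divided by the square root of the test's F value, and is not a separate estimate of spread. limma-voom (limma 3.58.1) and DESeq2 1.42.0 were alternatives. P-values measure the spread between single libraries of different entries, with no repeat of an entry and no batch given. On and off states and levels were described without a test. The members, the lists and the rule for naming loci were chosen with earlier results of these data known. The rule named the 2 loci with the most reads in each of the 6 commonest sets, all loci of the 5 longest runs, up to 6 loci on in exactly 1 lignin group, the 2 smallest edgeR p in each direction, loci at the limit, those with the most transcripts and the widest and narrowest range, the 5 highest in TPM and the loci most like the most abundant one; others were named after their values were seen. The young stem, wall, leaf and dividing cell markers listed for a check matched 0 loci, as identifiers carry no names.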

Additional observations from a re-analysis of the deposited data

Results flagged for a closer look

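MSTRG.29694 in high lignin was singled out by 1 library far from the others: BAGCE_10 stood at 8.41 CPM, against 1.68, 2.36 and 1.79 CPM in BAGCE_5, BAGCE_82 and BAGCE_Pioneiro. It was the only one of 11 groups of 4 libraries, all with reads in every library, beyond Dixon's 95% limit for groups of 4. Chance alone puts about 1 in 20 groups beyond it where values are normally distributed. The limit was applied here to plain CPM, and log2 CPM was not tried. Without BAGCE_10 its log2 fold change, high minus low lignin, was 2.54 in place of 3.41.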

How the results depend on the processing

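No paired analysis was possible because the 8 entries all differ and their labels link none across the groups. The count of loci called for lignin stayed at 0 in edgeR under RLE scaling, without a filter, with 1 CPM in 3 libraries, over 75218 transcripts in place of loci and with each library left out (0 to 0), and in limma-voom; DESeq2 called 52. The cause was not tested. The number of the 300 at an unadjusted p under 0.05, 8 in edgeR, was 21 without a filter, 18 with 1 CPM in 3 libraries, 14 in limma-voom, 20 in DESeq2, and 10 to 27 with libraries left out, where more loci passed the filter. As a share of those of the 300 that were tested, with the share of all loci tested in brackets, it was 6.34% (2.55%) with 1 CPM in 3 libraries. It was 5.24% (1.33%) without BAGCE_5, 7.5% (3.56%) without BAGCE_10, 8.66% (6%) without BAGCE_82 and 9.75% (2.12%) without BAGCE_Pioneiro. It was 6.81% (4.11%) without BAGCE_7, 4.87% (0.963%) without BAGCE_32, 9.93% (2.38%) without BAGCE_96 and 3.55% (2.05%) without BAGCE_98. The 300 were selected on the same reads, so nothing is read from their higher shares. The count passed 1.5 times the 8 without any library but BAGCE_98, and was 15, 21, 24 and 27 without BAGCE_5, BAGCE_10, BAGCE_82 and BAGCE_Pioneiro, and 19, 13 and 27 without BAGCE_7, BAGCE_32 and BAGCE_96. The 2 loci with the smallest p in each direction kept their direction, which their choice fixes. Qualifying loci numbered 1164 with a minimum of 5 reads, 222 with 20, 164 with 20 reads in the most abundant transcript alone (chosen after seeing the data, as were the 1 CPM and DESeq2 counts of the 300), and 742 to 1042 with a library left out, since 3 to 5 of 7 is another rule. The commonest set held 71 of all 542, 28 of those 164, and 48 to 83 of 300 with a library left out. It was the same set, on in BAGCE_82, BAGCE_Pioneiro, BAGCE_7, BAGCE_32 and BAGCE_98, without BAGCE_5 (61), BAGCE_10 (48) or BAGCE_96 (83). Without BAGCE_82, BAGCE_Pioneiro, BAGCE_7, BAGCE_32 or BAGCE_98 another set was commonest, off in BAGCE_5 and BAGCE_10 alone and on in BAGCE_96, with 49, 50, 54, 49 and 52 loci. The share of consecutive pairs with the same set was 100% of 4 pairs in the most abundant transcript with 20 reads, and 25% (without BAGCE_32) to 85.7% (without BAGCE_10) with libraries left out. Loci in runs numbered 30 of all 542 and 6 to 19 with libraries left out: 19 without BAGCE_5, 7 without BAGCE_82 and 6 without BAGCE_32. Depth limits an off state to under 3 reads, and 1 library per entry leaves variation within an entry unmeasured.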
